A study of Mus musculus with 12 samples.

Results

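The mRNAs described here encode 9 dendritic and postsynaptic density proteins: Camk2a, Dlg4, Dlgap3, Shank1, Shank3, Nrgn, Ppp1r9b, Ddn and Map2. The set is a list of gene names, and no threshold on a measured value defines it, but it was chosen with earlier results of these data known. The 12 count tables list 27179 genes by Entrez number, of which 25275 matched a mouse symbol, and all 9 members were among the 14185 genes that passed the filter on low counts. The data come from primary hippocampal neurons of mouse pups (postnatal day 0 per the study's methods, with no age in the labels, and strain C57BL/6 per the labels, whereas the methods name FVB as well) that were grown on porous membrane inserts for 17 or 18 days, so that neurites on the membrane and somas scraped from it could be collected apart. Cultures received either the proteasome inhibitor MG132 at 10 μM for 7 h or DMSO (Ctrl), and polyadenylated RNA was sequenced. Each of the 4 combinations of fraction and treatment had 3 libraries.

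Total counts per library ran from 6799464 to 10052321 in Ctrl somas, from 5750510 to 9460135 in Ctrl neurites, from 4247610 to 18411436 in MG132 somas and from 6545752 to 22166347 in MG132 neurites. Nothing in the labels states whether libraries with different numbers came from separate litters, so p-values measure the spread between these libraries. Libraries that carry the same number, 1, 2 or 3, deviated together from their group means and were treated as pairs. Results of a fit that includes the number are given where they change a call in the comparisons described. By the library names, number 1 was cultured for 18 days and numbers 2 and 3 for 17 days. The part of culture day in the values of number 1 was not tested. The neurite fraction holds what stays on the membrane after scraping, which can include axons, dendrites, processes of glia and remaining cell bodies or nuclei. In such bulk samples, fewer cells of a type and less RNA per cell cannot be told apart.

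A small set of mRNAs is carried from the neuronal cell body along microtubules into dendrites, packed with RNA-binding proteins and translated near synapses. The postsynaptic density is the protein lattice under the membrane of excitatory synapses, in which scaffold proteins of the Dlg, Dlgap and Shank families hold glutamate receptors next to kinases and phosphatases. Camk2a, which encodes the alpha subunit of Ca2+/calmodulin-dependent protein kinase II, is the most studied dendritic mRNA of the hippocampus, and Map2 protein is the classical marker of dendrites.

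Positions are given in GRCm38 (mm10). The scaffold genes are Dlg4 (chr11:70017203-70045535, plus strand), Dlgap3 (chr4:127168305-127237022, plus), Shank1 (chr7:44308916-44360094, plus) and Shank3 (chr15:89493013-89560261, plus). Nrgn lies at chr9:37544493-37552745 on the minus strand, Ppp1r9b at chr11:94991212-95006898 on the plus strand, Ddn at chr15:98803782-98807925 on the minus strand and Map2 at chr1:66175202-66442583 on the plus strand. Other annotated genes overlap some of them: 1611 bases of Ddn are shared with B130046B21Rik and 16354 bases of Shank3 with Gm15609. Of the 75-base windows of their longest transcripts, 2.81% in Ddn, 3.06% in Shank1, 2.72% in Shank3 and 0.736% in Dlg4 also occur in a transcript of another gene, and none in the other 5 members. Whether the counting used strand is not stated beyond default settings, so reads from these overlaps cannot be assigned to 1 gene with certainty.

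Sequence elements in 3′ UTRs are recognised by RNA-binding proteins that travel with dendritic mRNAs, and 2 such elements were searched for on the sense strand of the longest annotated 3′ UTR of each gene (GENCODE M21). The cytoplasmic polyadenylation element is bound by CPEB proteins. Only its form TTTTAT was searched for, and other forms were not. The Pumilio element, TGTANATA, is bound by Pumilio proteins. The sites below show where members carry one, with the element in capitals, 5′ to 3′ in DNA letters.
Map2, chr1:66439131-66439160, plus strand: taattgttacaaTTTTATataaaaaattaa
Map2, chr1:66440962-66440991, plus strand: aaattggttattTTTTATataactttaaaa
Dlgap3, chr4:127236765-127236794, plus strand: agcttcgtggctTTTTATgaagaatcccga
Dlg4, chr11:70034046-70034075, plus strand: aaggtgtacaccTTTTATtgagacacagtt
Ddn, chr15:98803830-98803859, minus strand: taatgaggtaaTGTATATAaggcgtcttgc
Ppp1r9b, chr11:95006583-95006612, plus strand: tccgagtccccTGTAAATAgaccatgccat
Ppp1r9b, chr11:95006798-95006827, plus strand: gaccccgtctcTGTATATAatatatatatg

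Map2 held 5 TTTTAT strings in 3576 bases of 3′ UTR, Dlg4 held 4 in 5463 bases and Dlgap3 held 1 in 654 bases. The Dlg4 sequence is from a transcript of 6326 bases, and its last site ends at 70037253, whereas the gene ends at 70045535. The Dlg4 transcript with the longest coding sequence has a 3′ UTR of 837 bases, which was not searched. Counts of members, the length range and the median below include the longer Dlg4 sequence. The other 6 members held no TTTTAT, so 3 of 9 members carried this string. It occurred in 58.6% of the 13337 tested genes with a 3′ UTR and 71.1% of the 8931 whose 3′ UTR was between 654 and 5463 bases long. The Pumilio element occurred in Ppp1r9b (2 sites), Ddn (1) and Dlg4 (1), again 3 of 9 members, against 27.8% of all and 33.6% of those of like length. Camk2a, Shank1, Shank3 and Nrgn held neither string. A match is a string of letters in an annotated 3′ UTR, and no binding was measured. A member without the string TTTTAT may still carry another form of the element. The members' longest 3′ UTRs had a median of 1938 bases, against 1253 over 13375 tested coding genes, and their coding sequences a median of 2454 against 1446 bases.

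The levels of the 9 mRNAs differed widely. Counts were divided by the library's total after TMM scaling (trimmed mean of M-values, which corrects for differences in composition) and are given as CPM (counts per 1000000). Levels are compared between genes only per kilobase of annotated exon. Over all 12 libraries Camk2a was highest, with 104 CPM per kb, followed by Map2 with 30.9, Ppp1r9b with 29.1, Nrgn with 17.3 and Ddn with 15.5 CPM per kb. Dlg4 (8.86), Shank3 (7.36), Dlgap3 (6.16) and Shank1 (4.70 CPM per kb) made up the lower end on this length.

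The order per kilobase changed between the fractions. In Ctrl somas Camk2a stood at 67.2 ± 32.2 CPM per kb (SD, n = 3), Ppp1r9b at 24.6 ± 6.44, Map2 at 22.1 ± 5.78, Nrgn at 18.6 ± 6.49 and Ddn at 17.7 ± 3.72, and the SD ranges of the last 4 overlapped. Shank1 (4.51 ± 1.45), Dlgap3 (4.39 ± 1.67) and Shank3 (4.39 ± 1.69 CPM per kb) could not be separated there. In Ctrl neurites Shank3 stood at 14.4 ± 6.86 CPM per kb, ahead of Dlgap3 (10.8 ± 6.44), Dlg4 (10.4 ± 5.82) and Shank1 (6.80 ± 4.08), with SDs that overlapped. These values depend on the length used: per kilobase of the longest transcript instead, Map2 rose from 30.9 to 81.2 CPM per kb and Dlg4 from 8.86 to 18.6, since their annotated exons add up to far more than any single transcript. Dlg4 then stood above Nrgn (17.3) and Ddn (15.7 CPM per kb), so the place of Dlg4 in the order turns with the length used.

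**Figure D1:**
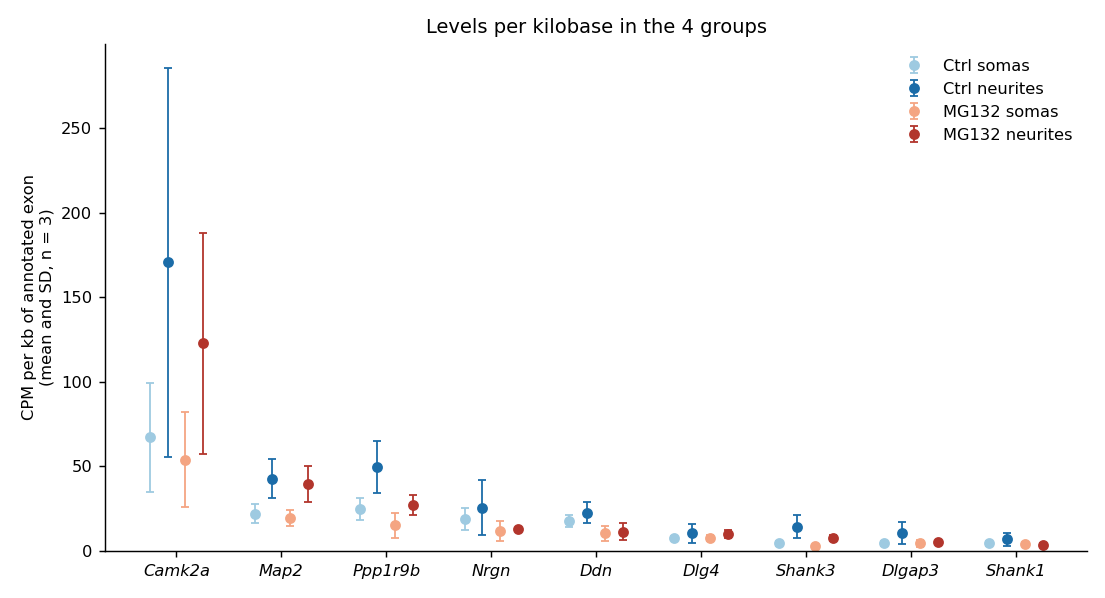
Level of each of the 9 mRNAs in CPM per kb of annotated exon (y axis, linear) in the 4 groups; points are means and bars SD of 3 libraries. Camk2a was the highest in every group, and Dlg4, Shank3, Dlgap3 and Shank1 were the lowest over all libraries on this length, whereas per kb of the longest transcript Dlg4 stood above Nrgn and Ddn.

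The first comparison asked which of these mRNAs were more abundant in neurites than in somas of unstressed (Ctrl) neurons. All 9 had a positive difference, and Shank3, which encodes a master scaffold at the base of the postsynaptic density, was 3.27-fold higher in neurites. Camk2a was 2.54-fold, Dlgap3 2.43-fold, Ppp1r9b 2.01-fold and Map2 1.93-fold higher by their estimates. The remaining 4, Shank1, Dlg4, Nrgn and Ddn, had estimates of 1.49-, 1.40-, 1.36- and 1.27-fold. A call required an adjusted p under 0.01 and a change over 1.7-fold in edgeR's quasi-likelihood test on 4 group means. By that rule only Shank3 rose among the 9, where 6.15% of all 14185 tested genes were called higher. With the library number in the fit, 5 of 9 rose (Camk2a, Dlgap3, Shank3, Ppp1r9b and Map2), against 8.59% of all genes. In that fit Dlgap3 lost its call without Ctrl neurite library 1 (edgeR adjusted p = 0.0163), and the other 4 were called (4 of 9, against 7.51% of all genes). The median difference of the 9 was 0.95 on the log2 scale, and that of all tested genes was -0.04.

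Camk2a, the kinase subunit (chr18:60925307-60988152, plus strand), was counted at 777, 331 and 397 CPM in Ctrl somas 1, 2 and 3 and at 2242, 604 and 977 CPM in the neurites of the same numbers. Neurites were above somas within each number, but the neurite level of number 2 lay under the soma level of number 1, so the groups overlapped. Camk2a differed by 1.34 ± 0.52 on the log2 scale (SE, edgeR adjusted p = 0.104), and 1.22 ± 0.17 with the library number in the fit (edgeR adjusted p = 7.6e-06). Without Ctrl neurite library 1 the group means gave 0.66 and the fit with the number 1.08 (edgeR adjusted p = 0.449 and 0.000201).

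Among the scaffolds, Shank3 was at 56.2, 39.4 and 25.2 CPM in Ctrl somas and at 205, 87.4 and 106 CPM in Ctrl neurites. Every neurite library exceeded every soma library. Its log2 difference of 1.71 ± 0.33 (SE, edgeR adjusted p = 0.00237) was above that of 96.7% of tested genes, and with the number in the fit it was 1.67 ± 0.21. Leaving out 1 library at a time gave 1.26 to 1.97, and the call was lost without Ctrl neurite library 1 (edgeR adjusted p = 0.011), Ctrl soma library 2 (0.01995) or Ctrl soma library 3 (0.02255).

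Dlgap3, which links Dlg4 to the Shank proteins, was at 26.6, 21.3 and 11.7 CPM in Ctrl somas and at 82.2, 34.6 and 29.4 CPM in Ctrl neurites. These groups did not overlap. Its estimate on the log2 scale was 1.28 ± 0.42 (SE, edgeR adjusted p = 0.0554), and 1.21 ± 0.25 with the number (edgeR adjusted p = 0.000905). Without Ctrl neurite library 1 the group means gave 0.69 (edgeR adjusted p = 0.288).

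Dlg4, which encodes the scaffold PSD-95, was at 116, 88.1 and 89.1 CPM in Ctrl somas and at 226, 99.5 and 86.4 CPM in Ctrl neurites. Only neurite library 1 stood clearly above the soma values, and number 3 went the other way. Shank1 was at 58.1, 54.1 and 30.0 CPM in somas and at 121, 41.4 and 52.4 CPM in neurites, with neurites lower in number 2. The log2 differences were 0.48 ± 0.31 for Dlg4 and 0.58 ± 0.40 for Shank1 (SE, edgeR adjusted p = 0.356 and 0.389). On group means both turned negative, to -0.07 and -0.01, without Ctrl neurite library 1. With the number in the fit and without that library they were 0.11 and 0.21.

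Nrgn encodes neurogranin, a small postsynaptic protein that binds calmodulin. It was at 37.8, 23.6 and 19.9 CPM in Ctrl somas and at 64.2, 24.0 and 23.5 CPM in Ctrl neurites, so that numbers 2 and 3 hardly differed between fractions. Nrgn differed by 0.44 ± 0.41 (SE, edgeR adjusted p = 0.547), and on group means by -0.19 without Ctrl neurite library 1. With the number in the fit and without that library it differed by 0.062.

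Ppp1r9b encodes spinophilin, which targets protein phosphatase 1 to dendritic spines. It was at 162, 99.3 and 114 CPM in Ctrl somas and at 305.9, 164 and 287 CPM in Ctrl neurites. The lowest neurite library only just exceeded the highest soma library. Spinophilin mRNA thus differed by 1.01 ± 0.33 (SE, edgeR adjusted p = 0.0552), and 0.99 ± 0.16 with the number (edgeR adjusted p = 7.2e-05).

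Ddn encodes dendrin, a protein of dendrites and of the postsynaptic density. It was at 75.8, 50.6 and 74.0 CPM in Ctrl somas and at 110, 63.4 and 82.7 CPM in Ctrl neurites. Neurites were higher within each number by a small margin. The log2 difference of 0.35 ± 0.35 (SE, edgeR adjusted p = 0.586) was no larger than its error, and it was 0.13 without Ctrl neurite library 1 and 0.11 without Ctrl soma library 2.

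Map2, the microtubule-associated protein of dendrites, was at 454, 373 and 264 CPM in Ctrl somas and at 917, 640 and 553 CPM in Ctrl neurites. The groups did not overlap, and neurites were higher within each number. Its log2 difference was 0.95 ± 0.26 (SE, edgeR adjusted p = 0.0241), and 0.94 ± 0.14 with the number (edgeR adjusted p = 1.7e-05).

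**Figure D2:**
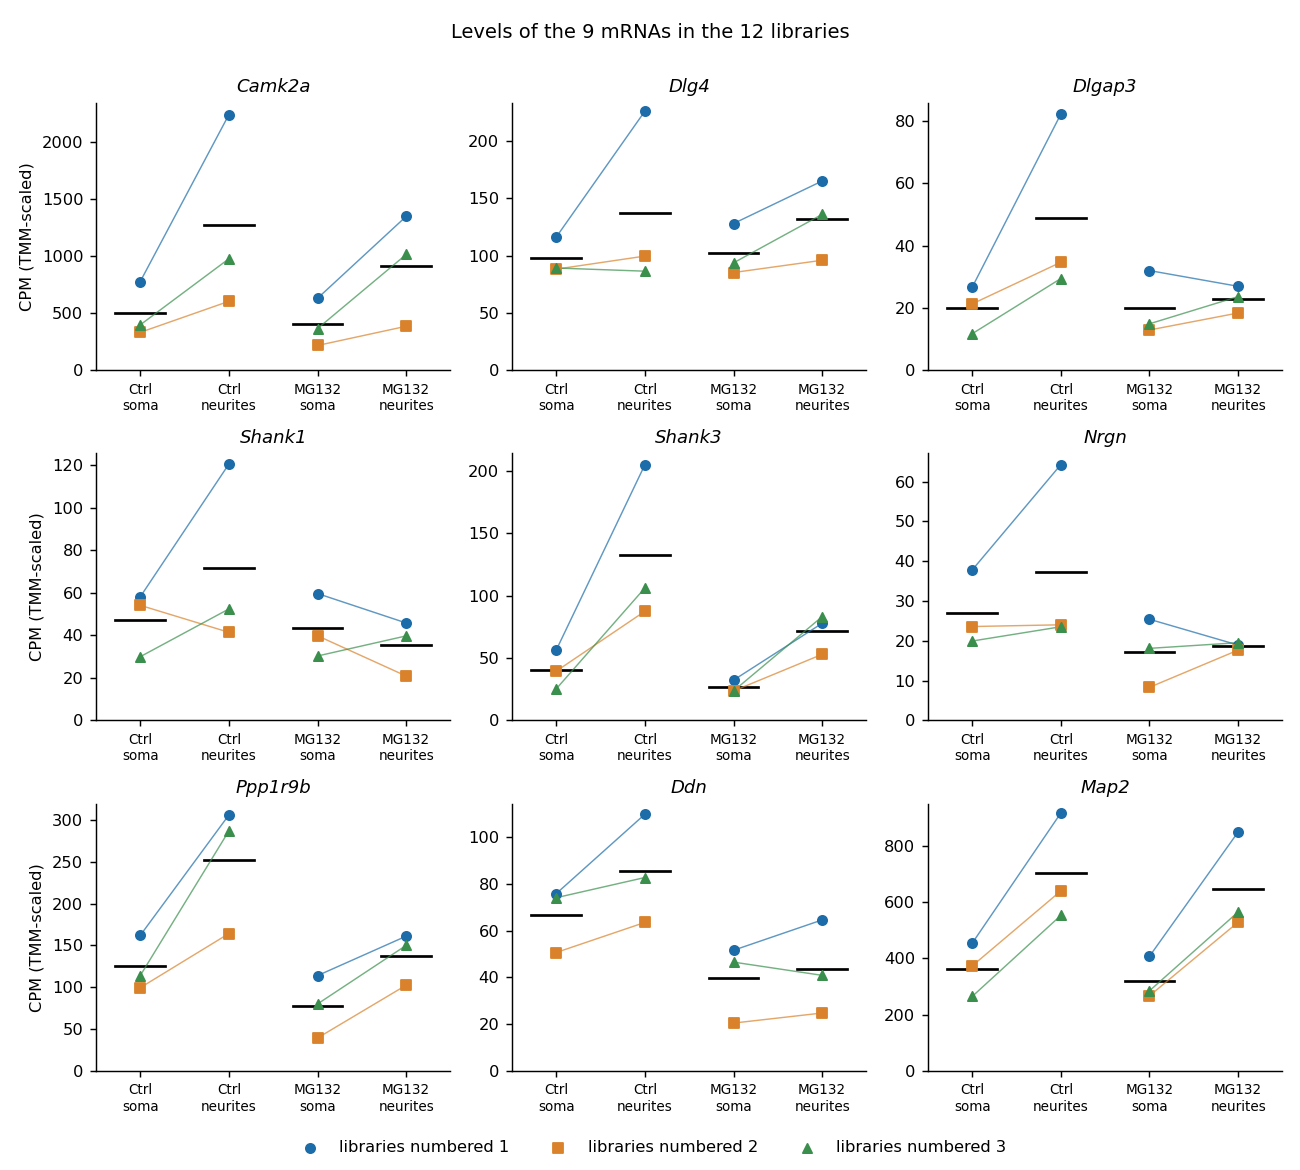
CPM of each mRNA (y axis, linear from 0) in each of the 12 libraries, by group; coloured lines join soma and neurite libraries with the same number and black bars are group means of 3. Shank3, Map2, Dlgap3 and Ppp1r9b were higher in every Ctrl neurite library than in every Ctrl soma library, and libraries numbered 1 were often the highest of their group. The share of all genes separated in this way was not computed.

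The scale used sets the sign of the smaller differences. Neurite libraries carried smaller TMM factors than somas of the same number, and without these factors the median difference of all genes between Ctrl neurites and somas fell by 0.66 on the log2 scale. On total counts, Shank3 differed by 0.92 (edgeR adjusted p = 0.0511), Camk2a by 0.52 and Map2 by 0.21, while Dlg4, Nrgn, Ddn and Shank1 had negative differences of -0.29, -0.36, -0.37 and -0.22. Relative to the median gene, Shank3 stood 1.75 above it under TMM and 1.62 above it on total counts, Camk2a 1.38 and 1.22, and Map2 0.99 and 0.91. The statements on neurite enrichment therefore describe a position among the mRNAs of a fraction, not the number of molecules per cell.

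The make-up of the libraries also differed with the fraction. Mitochondrially encoded genes took 17.1%, 13.9% and 13.0% of all counts in Ctrl somas 1, 2 and 3 and 29.2%, 16.7% and 16.6% in Ctrl neurites. In MG132 cultures they took 16.1%, 11.97% and 9.78% in somas and 29.0%, 13.5% and 21.3% in neurites. The share was thus higher in neurites within every number, and neurite libraries 1 stood apart at the top. The fewest genes with a count among Ctrl libraries, 14491, were in neurite library 1, which also had the highest CPM of its group for each of the 9 mRNAs. A single gene without a matched symbol took 12.4% to 33.4% of the counts of a library, with more in neurites than in somas in 4 of the 6 pairs of the same number and treatment. The part of these differences in the members' values was not tested.

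In MG132-treated cultures the same comparison again placed Shank3 first. It was 2.68-fold higher in neurites, Camk2a was 2.27-fold, Map2 2.02-fold and Ppp1r9b 1.76-fold higher by their estimates, and Shank1 was the only one of the 9 with a negative difference. Shank3 was the 1 member called higher, where 6.92% of all genes were. With the library number, 4 of 9 rose (Camk2a, Shank3, Ppp1r9b and Map2), against 9.38% of all genes. The 9 had a median log2 difference of 0.37, and all tested genes of -0.08.

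Shank3 was at 32.2, 23.6 and 23.6 CPM in MG132 somas and at 77.8, 52.9 and 83.1 CPM in MG132 neurites. The groups did not overlap. Shank3 differed by 1.42 ± 0.33 (SE, edgeR adjusted p = 0.00786). Leaving out 1 library at a time gave 1.35 to 1.65, and the call was lost without any 1 of the 3 MG132 soma libraries (edgeR adjusted p = 0.01235, 0.0322 and 0.02775) and without MG132 neurite library 1 or 3 (0.0239 and 0.0289).

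Camk2a was at 630, 216 and 364 CPM in MG132 somas and at 1349, 385 and 1015 CPM in MG132 neurites, again higher in neurites within each number although the groups overlapped. Its log2 difference was 1.18 ± 0.52 (SE, edgeR adjusted p = 0.138), and 1.16 ± 0.17 with the number (edgeR adjusted p = 1.5e-05). Map2 was at 407, 267 and 284 CPM in MG132 somas and at 849, 529 and 565 CPM in MG132 neurites, without overlap. It differed by 1.02 ± 0.26 (SE, edgeR adjusted p = 0.0148), and by 1.01 ± 0.14 with the number (edgeR adjusted p = 6.9e-06).

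Ppp1r9b was at 114, 39.2 and 79.9 CPM in MG132 somas and at 161, 102 and 150 CPM in MG132 neurites. Its log2 difference was 0.82 ± 0.33 (SE, edgeR adjusted p = 0.109), and 0.90 ± 0.17 with the number (edgeR adjusted p = 0.000222). The group means gave 0.50 without MG132 soma library 2 and 1.26 without MG132 soma library 1. The other 5 members had log2 differences of Dlg4 0.37 ± 0.31, Dlgap3 0.19 ± 0.42, Ddn 0.10 ± 0.36, Nrgn 0.09 ± 0.42 and Shank1 -0.30 ± 0.40 (SE). Dlg4 ranged from 0.18 without MG132 neurite library 1 to 0.62 without MG132 soma library 1, and the other 4 changed sign without a library. Dlgap3 thus stood at 19.9 ± 10.5 CPM in MG132 somas and at 22.9 ± 4.32 CPM in MG132 neurites (SD, n = 3), where Ctrl neurites had 48.8 ± 29.1.

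Averaged over both treatments, which uses all 12 libraries, 3 of 9 mRNAs were called higher in neurites (Shank3, Map2 and Ppp1r9b), against 9.44% of all genes, and Camk2a was added with the library number in the fit (4 of 9, against 10.4%). The mean log2 differences were 1.56 ± 0.23 for Shank3 (SE, edgeR adjusted p = 0.000135), 0.98 ± 0.19 for Map2 (0.00101), 0.91 ± 0.24 for Ppp1r9b (0.00871) and 1.26 ± 0.37 for Camk2a (0.0178). The Ppp1r9b call was lost without any 1 of 8 of the 12 libraries, with a log2 difference of 0.76 to 1.13 over all of them.

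**Figure D3:**
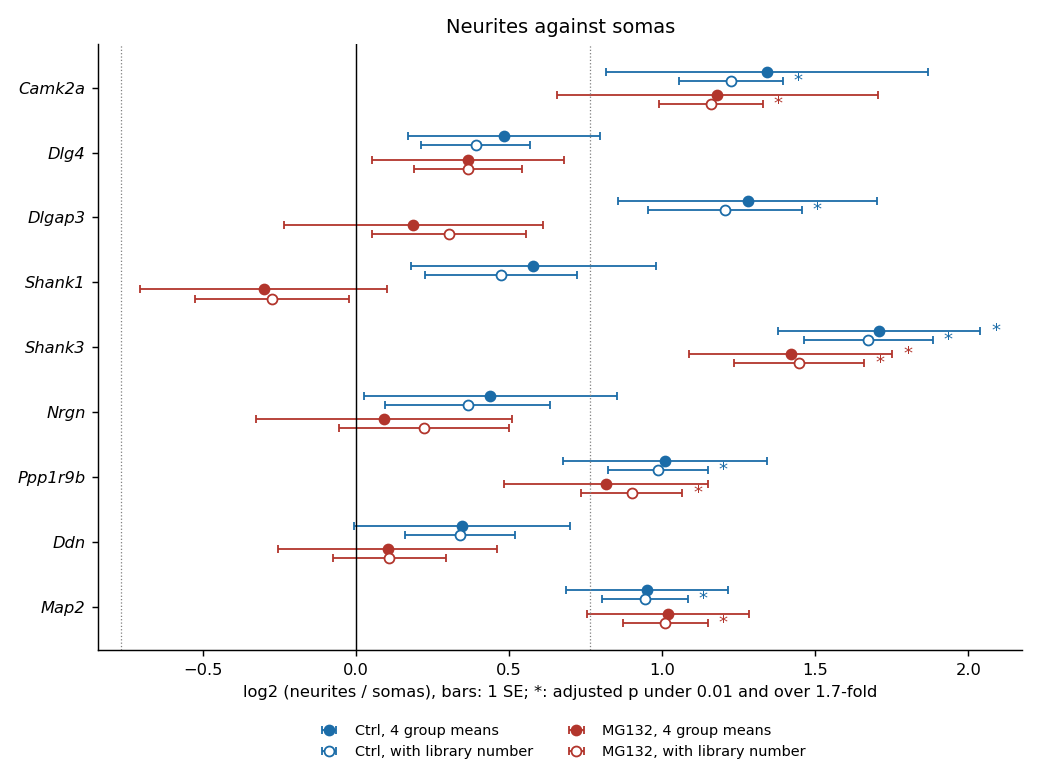
log2 difference of neurites against somas for each mRNA in Ctrl and in MG132 cultures (x axis, bars 1 SE), from the fit of 4 group means (filled) and the fit with the library number (open); dotted lines mark 1.7-fold and asterisks the calls. Shank3 was called in all 4 fits shown, and Camk2a, Map2 and Ppp1r9b in both fits with the number.

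The next comparison asked how proteasome inhibition changed these mRNAs. In somas, 7 of 9 had lower estimates with MG132, led by Ddn (0.596 of the Ctrl level), Ppp1r9b (0.623), Nrgn (0.644) and Shank3 (0.656). None of the 9 was called lower in edgeR, where 5.58% of all genes were, none was lower at an unadjusted p under 0.05, where 18.3% of all genes were, and DESeq2 called 0 as well, against 6.91% of all genes. With the library number in the fit, Ddn alone fell, against 9.76% of all genes.

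Ddn was at 75.8, 50.6 and 74.0 CPM in Ctrl somas and at 51.5, 20.4 and 46.5 CPM in MG132 somas. It was lower with MG132 within each number, although the groups overlapped by a narrow margin. Ddn differed by -0.75 ± 0.35 (SE, edgeR adjusted p = 0.134), and -0.82 ± 0.18 with the number (edgeR adjusted p = 0.00107). Ppp1r9b, also lower within each number, differed by -0.68 ± 0.33 (SE, edgeR adjusted p = 0.145). With the number it had an adjusted p of 0.000841 in edgeR, but its log2 difference of -0.76 fell just short of the 0.77 that 1.7-fold requires. Without MG132 soma library 2 the group means gave -0.44 for Ddn and -0.36 for Ppp1r9b, and Ppp1r9b was -0.44 without Ctrl soma library 1 and -1.07 without MG132 soma library 1.

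Nrgn differed by -0.63 ± 0.41, Shank3 by -0.61 ± 0.33 and Camk2a by -0.31 ± 0.52 between MG132 and Ctrl somas (SE, edgeR adjusted p = 0.278, 0.185 and 0.697). All 3 were lower within each number. Leaving out Ctrl soma library 1 moved them to -0.30, -0.27 and 0.17. Nrgn was also -1.01 without MG132 soma library 1 and -0.32 without MG132 soma library 2, and Camk2a -0.80 and -0.01. Map2 (-0.19 ± 0.26) and Dlg4 (0.06 ± 0.31) had differences under their SE, with group means of 364 and 319 CPM for Map2 and 97.8 and 102 CPM for Dlg4 in Ctrl and MG132 somas. Shank1 stood at 47.4 ± 15.2 and 43.3 ± 15.0 CPM and Dlgap3 at 19.8 ± 7.56 and 19.9 ± 10.5 CPM (SD, n = 3).

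In neurites all 9 had lower estimates with MG132, and the median log2 difference was -0.90, against -0.16 for all tested genes. Dlgap3, Shank1, Ddn and Nrgn stood at 0.471, 0.494, 0.504 and 0.506 of their Ctrl level, and Shank3 and Ppp1r9b at 0.537 and 0.545. The fit of group means called none of the 9 lower in edgeR, where 5.44% of all genes were called, and DESeq2 called 0, against 6.3%. At an unadjusted p under 0.05, 6 of 9 were lower, against 19.5% of all genes. With the library number, 5 of 9 fell (Ddn, Shank1, Shank3, Dlgap3 and Ppp1r9b), against 9.75% of all genes. Those calls rested in part on 1 library: without Ctrl neurite library 1 the fit with the number called 2 of 9, Ddn and Ppp1r9b, against 7.11% of all genes.

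Shank3 was at 205, 87.4 and 106 CPM in Ctrl neurites and at 77.8, 52.9 and 83.1 CPM in MG132 neurites. Every MG132 library lay under every Ctrl library. The log2 difference was -0.90 ± 0.32 (SE, edgeR adjusted p = 0.0529), and -0.81 ± 0.21 with the number (edgeR adjusted p = 0.00331). Without Ctrl neurite library 1 these became -0.45 and -0.61 (edgeR adjusted p = 0.315 and 0.0481). Dlgap3, at 82.2, 34.6 and 29.4 CPM in Ctrl neurites, was at 26.9, 18.3 and 23.6 CPM with MG132, also without overlap.

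Dlgap3 differed by -1.09 ± 0.43 (SE, edgeR adjusted p = 0.0716), the most negative estimate of the 9 in this fit, and by -0.94 ± 0.25 with the number (edgeR adjusted p = 0.00513), where Ddn was the most negative. These values moved to -0.49 and -0.74 without Ctrl neurite library 1 (edgeR adjusted p = 0.411 and 0.0565). Shank1 was at 121, 41.4 and 52.4 CPM in Ctrl neurites and at 45.8, 20.9 and 39.8 CPM in MG132 neurites. The groups overlapped, with MG132 lower in each number. It differed by -1.02 ± 0.41 (SE, edgeR adjusted p = 0.0773), and by -0.92 ± 0.25 with the number (edgeR adjusted p = 0.00592), and without Ctrl neurite library 1 by -0.42 and -0.66 (edgeR adjusted p = 0.453 and 0.0789).

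Ddn was at 110, 63.4 and 82.7 CPM in Ctrl neurites and at 64.5, 24.7 and 40.8 CPM in MG132 neurites. Only MG132 library 1 reached into the Ctrl range. The log2 difference was -0.99 ± 0.36 (SE, edgeR adjusted p = 0.0544), and -1.05 ± 0.18 with the number (edgeR adjusted p = 9e-05). Leaving out Ctrl neurite library 1 gave -0.77 and -1.08. Ppp1r9b, at 305.9, 164 and 287 CPM in Ctrl neurites, was at 161, 102 and 150 CPM with MG132, without overlap. It differed by -0.87 ± 0.33 (SE, edgeR adjusted p = 0.065), and by -0.85 ± 0.16 with the number (edgeR adjusted p = 0.000257), and without Ctrl neurite library 1 by -0.72 and -0.90.

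Nrgn was at 64.2, 24.0 and 23.5 CPM in Ctrl neurites and at 18.9, 17.7 and 19.5 CPM in MG132 neurites, again without overlap, but 1 Ctrl library set most of the difference. Its log2 difference of -0.98 ± 0.42 (SE, edgeR adjusted p = 0.0984) moved to -0.35 without Ctrl neurite library 1. With the number it was -0.80 ± 0.28 (edgeR adjusted p = 0.026), and -0.52 without that library (edgeR adjusted p = 0.21).

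The estimates of Camk2a, Map2 and Dlg4 were closer to 0. Camk2a differed by -0.48 ± 0.52 (SE, edgeR adjusted p = 0.529) between MG132 and Ctrl neurites and was higher with MG132 in number 3. Without Ctrl neurite library 1 its value turned to 0.21 on group means and was -0.28 with the number in the fit. Map2 differed by -0.12 ± 0.26, with 703 ± 190 CPM in Ctrl and 648 ± 176 CPM in MG132 neurites (SD, n = 3). Dlg4 differed by -0.05 ± 0.31, with 137 ± 77.1 CPM in Ctrl and 132 ± 34.7 CPM in MG132 neurites, and this sign changed under other settings, to 0.50 without Ctrl neurite library 1.

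**Figure D4:**
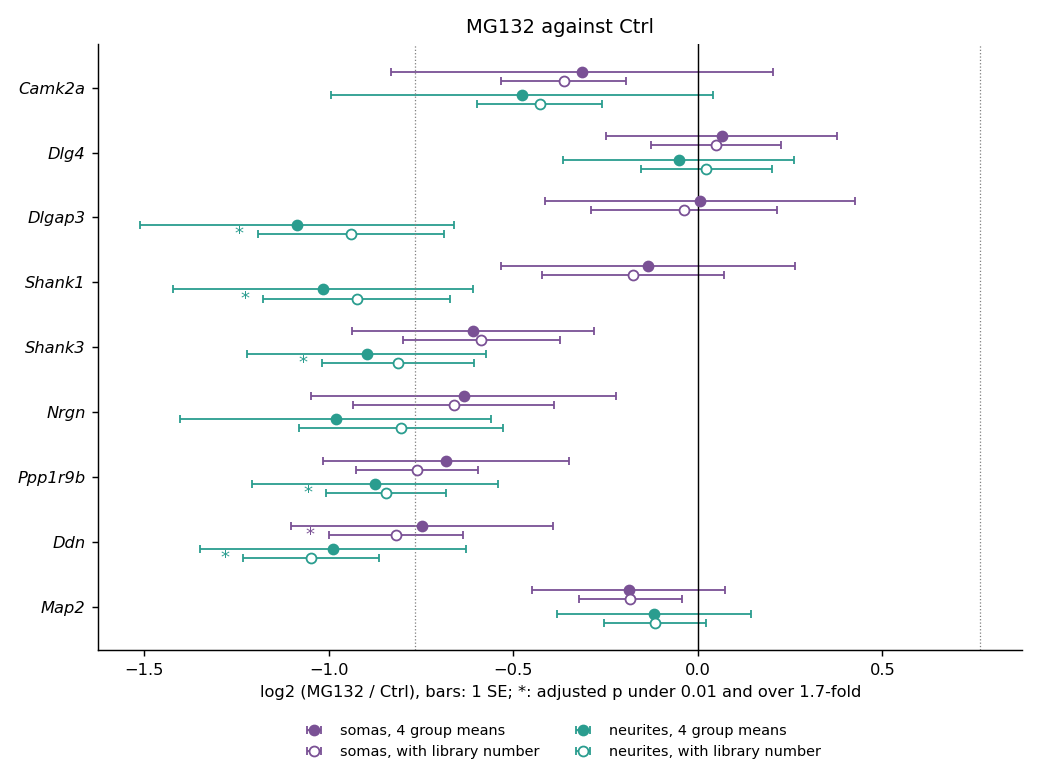
log2 difference of MG132 against Ctrl for each mRNA in somas and in neurites (x axis, bars 1 SE), from the fit of 4 group means (filled) and the fit with the library number (open); dotted lines mark 1.7-fold and asterisks the calls. In neurites Dlgap3, Shank1, Shank3, Ppp1r9b and Ddn were called lower only with the number, and Map2 and Dlg4 stayed near 0.

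Averaged over both fractions, 0 of 9 were called lower with MG132 in edgeR, where 11.4% of all genes were, and DESeq2 called 3, against 11.2% of all genes in that test. At an unadjusted p under 0.05, 4 of 9 were lower (Ddn, Ppp1r9b, Shank3 and Nrgn), against 27% of all genes. With the number, Ddn and Ppp1r9b fell (2 of 9, against 14.3%). The mean log2 differences were -0.87 ± 0.25 for Ddn, -0.78 ± 0.24 for Ppp1r9b, -0.75 ± 0.23 for Shank3 and -0.81 ± 0.29 for Nrgn (SE, edgeR adjusted p = 0.0119, 0.0149, 0.0157 and 0.0372). Nrgn moved to -0.49 without Ctrl neurite library 1 (edgeR adjusted p = 0.139).

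Whether MG132 acted differently on neurites and somas was tested as the difference between both responses. Of the 9, 8 had a more negative response in neurites, the largest being Dlgap3 with -1.09 ± 0.60 and Shank1 with -0.88 ± 0.57 on the log2 scale (SE, edgeR adjusted p = 0.768 and 0.83). None of the 9 was called, none had an unadjusted p under 0.05, and DESeq2 called 0, against 0.126% of all genes. Across all genes 0% were called, with 7.05% at an unadjusted p under 0.05 in edgeR, and 0.148% with the library number. Dlgap3, Shank1 and Ddn were more negative in neurites in all 3 numbers, and with the number in the fit their differences were -0.90 ± 0.36, -0.75 ± 0.35 and -0.23 ± 0.26 (SE, edgeR adjusted p = 0.303, 0.434 and 0.826). Without Ctrl neurite library 1 the group means gave -0.50 for Dlgap3 and -0.29 for Shank1, without MG132 soma library 1 they gave -0.50 for both, and without Ctrl soma library 3 -0.72 and -0.53. These values do not show that both compartments responded alike.

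The 9 mRNAs were positively correlated across libraries. The Pearson correlation of each with the mean of the other 8, on standardized log2(CPM + 1) over 12 libraries, was highest for Camk2a (0.93) and Dlgap3 (0.92) and lowest for Ddn (0.72) and Shank1 (0.73). Between pairs it was highest for Shank3 with Map2 (0.92) and lowest for Ddn with Map2 (0.45). These points share libraries, fractions and numbers, and the values are a description. Their summed level was 1763, 1080 and 1025 CPM in Ctrl somas 1, 2 and 3, 4272, 1758 and 2197 CPM in Ctrl neurites, 1480, 712 and 955 CPM in MG132 somas and 2758, 1246 and 2072 CPM in MG132 neurites. Number 1, the only number cultured for 18 days by the library names, was the highest in each group. Outside the set, the genes whose profile was most like the mean of the 9, among 8207 with at least 10 CPM, were Neurl1b (r = 0.95), Mapk8ip1 (0.94), Ctnnd2 (0.93), Trnp1 (0.93) and Gng7 (0.93).

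Other genes of the same pathways, in lists also chosen with earlier results of these data known, were read beside the 9. Of 24 other postsynaptic density genes, which include Dlg1, Dlg2, Shank2 and Homer1, 0 were called higher or lower in Ctrl neurites against somas in edgeR (6 had an unadjusted p under 0.05, as did 27.6% of all genes), and their median log2 difference was -0.20, where the members' was 0.95. With the library number Homer2 and Lzts3 rose and Cnksr2 fell. In MG132 cultures 21 of the 24 had a negative difference between neurites and somas, with a median of -0.52, and Dlg1 was the 1 gene called, higher in neurites (0.89 ± 0.21, SE, edgeR adjusted p = 0.0075). With the number, 5 were called lower there as well (Dlgap2, Shank2, Homer1, Cnksr2 and Baiap2). With MG132, Dlgap4 rose in somas (0.85 ± 0.18; edgeR adjusted p = 0.0026), and Iqsec1, an exchange factor for Arf proteins, fell in neurites by 1.06 on the log2 scale (edgeR adjusted p = 0.0036). With the number, Homer1, Homer3 and Baiap2 rose and Iqsec1 fell in somas too, and in neurites Baiap2 rose and Dlg2, Shank2, Lzts3 and Agap2 fell. The median of these 24 in neurites with MG132 was -0.34.

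Of 15 other mRNAs with reported dendritic localization, Calm3 (1.42 ± 0.20, SE) and Eef2 (0.89 ± 0.18) were higher and Grin1 (-1.52 ± 0.30) was lower in Ctrl neurites than in somas (edgeR adjusted p = 0.0001, 0.0039 and 0.0025), and the median of the 15 was -0.03. With the number Bdnf, Gria2 and Kcnd2 were lower in Ctrl neurites too. In MG132 cultures Calm3 was called higher and Grin1 lower in neurites, and Bdnf, Kcnd2 and Rgs4 lower with the number. Calm3 encodes calmodulin, Eef2 the translation elongation factor 2 and Grin1 the obligate subunit of NMDA receptors. With MG132, Arc, an immediate early gene, rose by 2.81 ± 0.63 in somas and by 2.61 ± 0.66 in neurites (edgeR adjusted p = 0.0044 and 0.0087). Fmr1, which encodes an RNA-binding protein of dendritic granules, rose by 1.11 ± 0.15 and 1.23 ± 0.15. Actb, which encodes beta-actin, fell by 1.27 and 1.66 on the log2 scale in somas and neurites, and Calm3 fell by 0.79 in neurites (edgeR adjusted p = 0.0077). With the number, Gria2 fell in somas and Cnih2 and Itpr1 fell in neurites as well.

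Among 8 genes for other CaMKII subunits, CaMKII inhibitors and calmodulins, Camk2n1, an endogenous inhibitor of the kinase, was higher in Ctrl neurites by 1.97 ± 0.30 and in MG132 neurites by 1.78 ± 0.29 (SE, edgeR adjusted p = 0.0003 and 0.0007), beside Calm3. Camk2b, the beta subunit, had a log2 difference of -0.27 in Ctrl. With the number Camk2n1 was lower with MG132 in somas and in neurites. None of 6 genes of protein phosphatase 1 and its regulators was called in edgeR in any of these comparisons, although 4 had an unadjusted p under 0.05 for MG132 in somas, as did 38.7% of all genes, and 1 in each of the other 3. Of 8 other genes for microtubule-associated proteins, Map4 was higher in neurites by 2.87 ± 0.24 in Ctrl and by 2.22 ± 0.23 in MG132 cultures, and Map1b by 1.06 ± 0.18 in MG132 cultures (edgeR adjusted p = 0.0007). With MG132, Map1b rose by 1.21 ± 0.18 and Mapt, which encodes the axonal protein tau, fell by 1.10 on the log2 scale in neurites (edgeR adjusted p = 0.0002 for both).

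Markers of other cells moved with the same comparisons. The gene named first for a marker list had the highest mean CPM of its list, a share of reads that is not divided by length and gives no order of levels. The summed level of 8 astrocyte markers was 5240 ± 548 CPM in Ctrl somas and 22640 ± 2778 CPM in Ctrl neurites (SD, n = 3), and 2790 ± 393 and 13874 ± 5240 CPM after MG132. Gfap took the most reads of them in each of the 12 libraries, and none of the 8 was at 0. In Ctrl cultures 4 of the 8 had positive and 4 had negative differences between neurites and somas. There 3 of 8 were called higher in neurites (Gfap, Slc1a2 and S100b) and Gja1 lower, and Aldh1l1 was added as higher with the number. Oligodendrocyte lineage markers, with Mbp named first, summed to 3850 ± 2612 and 13636 ± 8602 CPM in Ctrl somas and neurites. Mbp alone was at 1281, 496 and 2842 CPM in Ctrl somas 1, 2 and 3 and at 11546, 3709 and 18896 CPM in Ctrl neurites. Of the 8 differences, 5 were positive and 3 negative, with a median of 0.06 on the log2 scale. In edgeR 0 of 8 were called, 1 had an unadjusted p under 0.05 and Mbp was called higher with the number. In contrast, 8 neuron markers, with Snap25 named first, summed to 940 ± 211 CPM in Ctrl somas and 651 ± 240 CPM in Ctrl neurites, and again 0 of 8 were called in edgeR and 1 had an unadjusted p under 0.05, Syt1, which was called lower with the number.

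With MG132, 5 of 8 astrocyte markers fell in somas (Aqp4, Slc1a2, Slc1a3, S100b and Sox9) and 4 of 8 in neurites (the same without Slc1a3), and 6 and 5 with the number. Of the 8 oligodendrocyte lineage markers, Sox10 and Pdgfra fell in each fraction, and 6 and 4 of the 8 with the number. Microglia markers, with C1qa named first, went from 686 ± 87.7 to 218 ± 73.9 CPM in somas and from 787 ± 323 to 164 ± 68.5 CPM in neurites (SD, n = 3), with 3 of 8 called lower in somas (Cx3cr1, P2ry12 and Csf1r) and these and C1qa in neurites, and 7 of 8 in each fraction with the number. Neuron markers stood at 844 ± 271 CPM in MG132 somas and 632 ± 197 CPM in MG132 neurites, with 1 of 8, Stmn2, called lower in neurites and Nefm called higher there with the number. The neuron markers were highest in number 1 in each group, as the 9 mRNAs were: 1174, 763 and 885 CPM in Ctrl somas 1, 2 and 3 and 915, 591 and 446 CPM in Ctrl neurites. The part that neuronal content and glial RNA had in the members' levels was not tested.

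Other lists bear on how well the fractions were separated. Of 4 nuclear or nucleus-enriched RNAs, with Malat1 named first, 2 were called lower in Ctrl neurites than in somas (Meg3 and Neat1), and they summed to 6284 ± 627 CPM in the soma fraction against 2659 ± 1127 CPM (SD, n = 3). With the number all 4 were called lower. Their sum was 3932, 2257 and 1788 CPM in Ctrl neurites 1, 2 and 3, so nuclear RNA was present there and highest in library 1. The part of cell bodies or nuclei in the members' neurite values was not tested. Excitatory neuron markers, with Slc17a7 named first, summed to 268 ± 98.2 and 157 ± 67.8 CPM, and inhibitory neuron markers, with Gad1 named first, to 130 ± 71.5 and 56.4 ± 28.3 CPM, with 0 of 5 and 0 of 3 tested genes called in Ctrl in edgeR (2 and 1 at an unadjusted p under 0.05). With the number 2 of 5, Slc17a7 and Slc17a6, and 2 of 3, Gad1 and Gad2, were called lower in Ctrl neurites. Axonal markers, with Mapt named first, summed to 173 ± 6.08 CPM in Ctrl somas and 343 ± 43.7 CPM in Ctrl neurites, with Gap43 called higher.

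**Figure D5:**
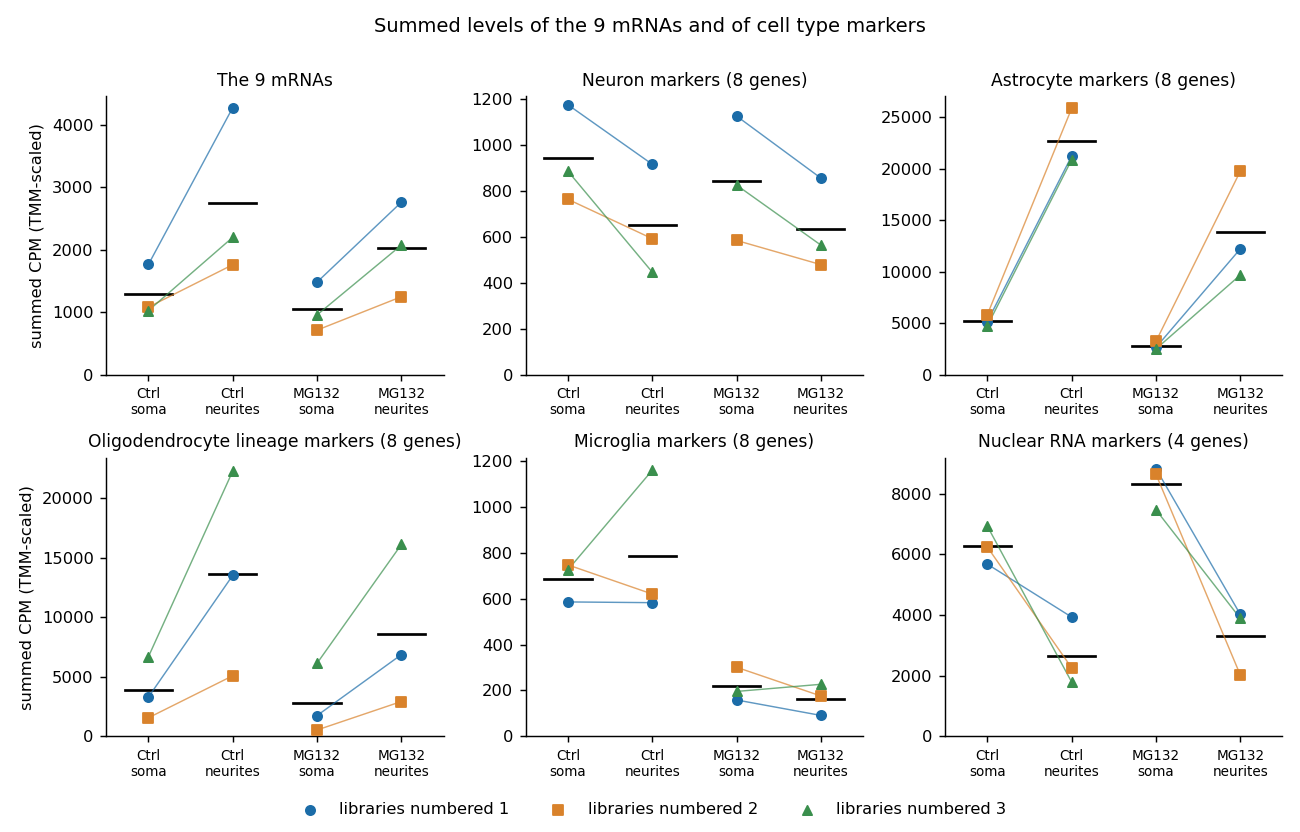
Summed CPM (y axes, linear from 0) of the 9 mRNAs and of fixed marker lists in each of the 12 libraries; coloured lines join soma and neurite libraries with the same number and black bars are group means of 3. The sum of astrocyte markers, in which Gfap took the most reads, was higher and that of nuclear RNAs lower in neurites of every number. Microglia markers were lower with MG132, and neuron markers, like the 9 mRNAs, were highest in number 1.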

How the data were processed

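RNA from somas and neurites was sequenced after poly(A) selection. Per the study's methods and the labels, the authors trimmed reads with Trimmomatic 0.38.0, aligned them to mm10 with STAR and counted them with featureCounts 2.0.1 at default settings, and the deposited values are whole, unnormalized counts per Entrez gene in 1 table per library. The authors' own tests used DESeq2 (Galaxy version 2.11.40.7) and are not used here. The methods describe a paired-end run but single-end alignment, and the strand setting is not given in the sources used here beyond "default".

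Entrez numbers were matched to symbols with RefSeq's GRCm38.p6 gene table (93.0% matched), and no 2 of the 66 library pairs were identical. Counts were filtered with filterByExpr, scaled by TMM and fitted with edgeR 4.0.16 (R 4.3.3, quasi-likelihood F-test, 4 group means), and p-values were adjusted over all 14185 genes by the Benjamini-Hochberg method. Errors after log2 differences are SE and those after CPM are SD. Overlap of libraries between groups was checked for the members only, and the share of all genes without overlap was not computed. After subtracting group means, libraries with the same number were correlated over genes (0.14 to 0.32, mean 0.27). The mean for different numbers, -0.13, follows from subtracting means of 3 libraries and adds no separate evidence. The fractions were taken from the same inserts, and 11 of 12 libraries share the date in their name with their number. A second fit therefore took the number as a block. DESeq2 1.42.0 was an alternative. On data simulated with 200 changed genes among 14185, the rule recovered 0.5%, 56% and 79.5% of log2 changes of 1, 2 and 3 between Ctrl fractions, and 0%, 57% and 78.5% between treatments in somas. These data held no effect of the library number and were fitted on group means alone, so the recovery does not apply to the fit with the number.

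Exon lengths, 3′ UTRs and sequence sites came from GENCODE M21, which also served for the longest transcript. The members, pathway and marker lists, thresholds and alternatives were chosen with earlier results of these data known. All 9 members were named; of the pathway lists, every gene called in a comparison described, except 1 that is not reported here, and a few abundant ones; of the marker lists, the gene with the highest mean CPM and those called on group means in a comparison described. Genes with like profiles were the 5 with the highest Pearson correlation. CPM rest on counts whose precision depends on depth: the lowest count of a member was 42 (Nrgn, MG132 soma library 2).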

Additional observations from a re-analysis of the deposited data

How the results depend on the processing

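Counts of called members depended on the setting. Percentages are the share of all genes called in the same direction there. Without TMM factors, 0 were called between fractions in Ctrl (1.26%), in MG132 (0.973%) or on average (2.42%) and 3 (11.5%) for the mean MG132 response, all genes' median fell by 0.66, 0.78 and 0.72 on the log2 scale between fractions and by 0.14 for MG132 in neurites, and 179 genes were higher and 938 lower in Ctrl neurites, against 872 and 181 with TMM. There, differences between fractions turned to -0.37 (Ddn), -0.22 (Shank1), -0.29 (Dlg4) and -0.36 (Nrgn) in Ctrl, and to -0.79 (Ddn), -0.50 (Dlg4), -0.66 (Dlgap3), -0.73 (Nrgn) and -0.063 (Ppp1r9b) in MG132. With DESeq2 size factors the mean MG132 response had 1 call (12.6%). DESeq2 itself gave 2 calls (6.19%) between MG132 fractions and 3 (11.2%) for the mean MG132 response. Without a count filter there were 2 calls in Ctrl (4.38%), 2 in MG132 (6.01%) and 1 for the mean response (7.78%), and Dlg4 and Map2 turned to 0.10 and 0.032 with MG132 in neurites. With at least 10 counts in every library the mean response had 3 calls (15.5%), and Dlg4 with MG132 in somas was -0.035. Fitting only the compared groups left 0 calls in Ctrl (5.17%). At an adjusted p under 0.05 without a fold threshold there were 2 calls in Ctrl (10.2%), 2 in MG132 (11.4%) and 4 for the mean response (22.4%), and requiring a log2 change over 1.7 left 0 in MG132 (2.04%) and 0 on average (2.21%). The cause of these changes was not tested, apart from the thresholds.

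The replicate block takes the library number as the pairing. It called 5 members between Ctrl fractions (8.59%), where group means called 1 (6.15%). Between MG132 fractions it called 4 (9.38%), where group means called 1 (6.92%). Group means called 0 for the MG132 response of somas (5.58%), of neurites (5.44%) and on average (11.4%). The block called 1 (9.76%), 5 (9.75%) and 2 (14.3%) there. The share of all genes called thus rose in each of these comparisons as well. Dlg4 with MG132 in neurites turned to 0.022. The block changed no member's call for the difference of responses (0.148%, against 0% on group means).

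Leaving out 1 library at a time gave 0 to 1 calls between fractions in Ctrl (3.95% to 5.47%), 0 to 1 in MG132 (4.44% to 5.97%), 2 to 4 on average (8% to 9.42%) and 0 to 2 for the mean MG132 response (7.84% to 10.4%). On group means, without Ctrl neurite library 1, 6 of 9 values between Ctrl fractions and 7 of 9 for MG132 in neurites moved over 1.5 times or turned. With the number in the fit and without that library, Shank1 (0.21), Dlg4 (0.11) and Nrgn (0.062) stayed positive between Ctrl fractions. For MG132 in neurites, Camk2a (-0.28) and Map2 (-0.098) stayed negative in that fit, and Dlg4 was 0.31. The ranges that crossed 0 between fractions were -0.015 to 0.86 (Shank1), -0.070 to 0.67 (Dlg4) and -0.19 to 0.70 (Nrgn) in Ctrl, and -0.29 to 0.40 (Ddn), -0.53 to 0.068 (Shank1), -0.034 to 0.77 (Dlgap3) and -0.22 to 0.53 (Nrgn) in MG132. For MG132 against Ctrl they were -0.80 to 0.17 (Camk2a), -0.41 to 0.021 (Map2) and -0.14 to 0.22 (Dlg4) in somas, and -0.86 to 0.21 (Camk2a), -0.24 to 0.50 (Dlg4) and -0.35 to 0.12 (Map2) in neurites. Ranges that moved over 1.5 times and did not cross 0 were 0.66 to 1.75 (Camk2a), 0.11 to 0.52 (Ddn) and 0.69 to 1.495 (Dlgap3) between Ctrl fractions, and 0.18 to 0.62 (Dlg4) and 0.50 to 1.26 (Ppp1r9b) in MG132. For MG132 they were -0.98 to -0.44 (Ddn), -1.01 to -0.30 (Nrgn), -1.07 to -0.36 (Ppp1r9b) and -0.85 to -0.27 (Shank3) in somas, -1.28 to -0.49 (Dlgap3), -1.22 to -0.35 (Nrgn), -1.29 to -0.42 (Shank1) and -1.12 to -0.45 (Shank3) in neurites, -0.96 to -0.49 (Nrgn) on average, and -1.31 to -0.50 (Dlgap3) and -1.16 to -0.29 (Shank1) for the difference of responses.

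Further alternatives were chosen after seeing the data. With numbers 2 and 3 alone, there was 1 call in Ctrl (3.3%) and 0 in MG132 (2.9%), Ddn between MG132 fractions was -0.064 and Dlg4 with MG132 in neurites 0.32. With library sizes from the 8 neuron markers, 4 members were called in Ctrl (4.6%) and 5 on average (12.8%), all genes' median rose by 0.61, 0.44 and 0.53 between fractions, Shank1 between MG132 fractions was 0.089 and Dlg4 with MG132 in neurites 0.060. With the replicate block on numbers 2 and 3 alone there were 4 calls in Ctrl (6.57%), 4 in MG132 (6.69%), 2 for MG132 in somas (5.29%), 1 in neurites (5.17%) and 2 for the mean response (9.75%), and Dlg4 with MG132 in neurites was 0.30. With the block and without Ctrl neurite library 1 there were 4 calls in Ctrl (7.51%), 2 for MG132 in neurites (7.11%) and 2 for the mean response (12.5%), and Dlg4 with MG132 in neurites was 0.31. Shank3 was called higher on average over both treatments without any 1 library, and its value ranged from 1.34 to 1.72. With 3 libraries per group, changes near 2-fold were rarely called by the fit of group means in simulated data. The fit with the number was not simulated.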
